A study of Mus musculus with 10 samples.

Results

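H3K4me3 was examined at the promoters of 10 genes. Of these, 9 are known for the nutrient uptake and the secreted proteins of the visceral endoderm (*Dab2*, *Cubn*, *Lrp2*, *Amn*, *Apoe*, *Apob*, *Apoa1*, *Ttr* and *Afp*), and *Cited1* encodes a transcriptional co-activator. They are 10 of the 21755 protein-coding genes with a promoter window here, and all 10 were found in the annotation. A gene was called marked in a library when a deposited peak overlapped the stretch from 1000 bp before to 100 bp after any of its transcription start sites (TSSs) in the GRCm38 mouse genome. The 10 genes were named from what they are known to do and not from their peaks. Earlier results of these data were known when they were chosen.

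The cells were naive extra-embryonic endoderm (nEnd), a mouse culture that resembles the primitive endoderm of the blastocyst, grown in RPMI medium with Activin A, CHIR99021 and LIF (RACL) on mouse feeder fibroblasts. All libraries came from the OCT4-mCherry reporter line, labelled as receiving no treatment. FACS by OCT4-mCherry and by a PDGFRA-APC stain gave Oct4+ nEnd (4 libraries), double-positive (DP) nEnd (3 libraries) and Pdgfra+ nEnd (3 libraries). Since all come from 1 reporter line, the spread between replicates is that of cultures and libraries of this line.

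The visceral endoderm forms from the primitive endoderm and surrounds the epiblast. On its outer face, megalin (*Lrp2*) and cubilin (*Cubn*) bind maternal proteins, lipoproteins and vitamins, amnionless (*Amn*) brings cubilin to the membrane, and the adaptor *Dab2* links the receptors to clathrin. The same cells load lipid onto apolipoproteins and secrete carriers such as transthyretin and alpha-fetoprotein. H3K4me3 is a histone mark of promoters that are transcribed or held open.

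The measurement was CUT&Tag, in which an antibody to the mark brings the Tn5 transposase to chromatin and the enzyme cuts and tags the DNA there. Each peak carries 2 values, its total signal (coverage summed over the peak) and its highest coverage. Coverage was not scaled between libraries, so a peak was placed by its percentile among the peaks of its own library, where 100 is the strongest. A sorted population is a mixture of cells, so fewer marked cells and less mark per cell cannot be told apart. The depth of the libraries is unknown. The lists held 3477 to 9144 peaks in Oct4+ nEnd, 7575 to 8836 in DP nEnd and 6510 to 10545 in Pdgfra+ nEnd, and 18.5% to 51.2% of genes were marked in a library. A peak missing from a list may lie under the lowest total signal of that list, so "unmarked" below means that no peak was called.

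The sorted populations were checked by their markers. *Pou5f1*, which encodes OCT4, was marked in 4 of 4 Oct4+ and 3 of 3 DP libraries and in 0 of 3 Pdgfra+ libraries. *Pdgfra* was marked in every DP and Pdgfra+ library, at percentiles of 99.8 or more, and in 1 of 4 Oct4+ libraries, at percentile 15.7. Of 15 fibroblast markers chosen for the feeder cells, 1 to 2 were marked per Oct4+ library, 2 to 4 per DP library and 0 to 4 per Pdgfra+ library. Of the 15, 11 were unmarked in all 10 libraries, among them the collagens *Col1a1*, *Col1a2* and *Col3a1*. The other 4 were *Fn1*, marked in 4 of 4 Oct4+ libraries (percentiles of 39.2 to 89.8), 3 of 3 DP and 2 of 3 Pdgfra+ libraries, *Col5a1*, marked in 3 of 3 DP and 2 of 3 Pdgfra+ libraries, and *Twist1* and *Tbx15*, marked in 5 and 2 libraries at percentiles of at most 14.1. These fibroblast genes were chosen for naming after their values were seen. Of 11 epiblast markers, 10 were marked per Oct4+ library, 6 to 8 per DP library and 1 to 4 per Pdgfra+ library. The part of other cells of the culture in the values below was not tested.

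Among the 10 genes, 6 were marked in at least 1 library and 4 in none, beside 46.5% of all genes marked in none. In every DP library 5 were marked (*Dab2*, *Lrp2*, *Amn*, *Apoe* and *Cited1*), beside 38.9% of all genes, and in every Pdgfra+ library 3 (*Dab2*, *Lrp2* and *Cited1*), beside 33.5%. In every Oct4+ library 1 was marked (*Apoe*), beside 18.2%. *Amn* and *Cubn* were marked in DP nEnd and in no other population. *Apob*, *Apoa1*, *Ttr* and *Afp* were unmarked throughout. Per library, 1 to 2 of the 10 genes were marked in Oct4+ nEnd, 5 to 6 in DP nEnd and 3 to 4 in Pdgfra+ nEnd. The shares of all genes per library were 18.5% to 43.8%, 39.4% to 45.2% and 33.8% to 51.2%.

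**Figure D1:**
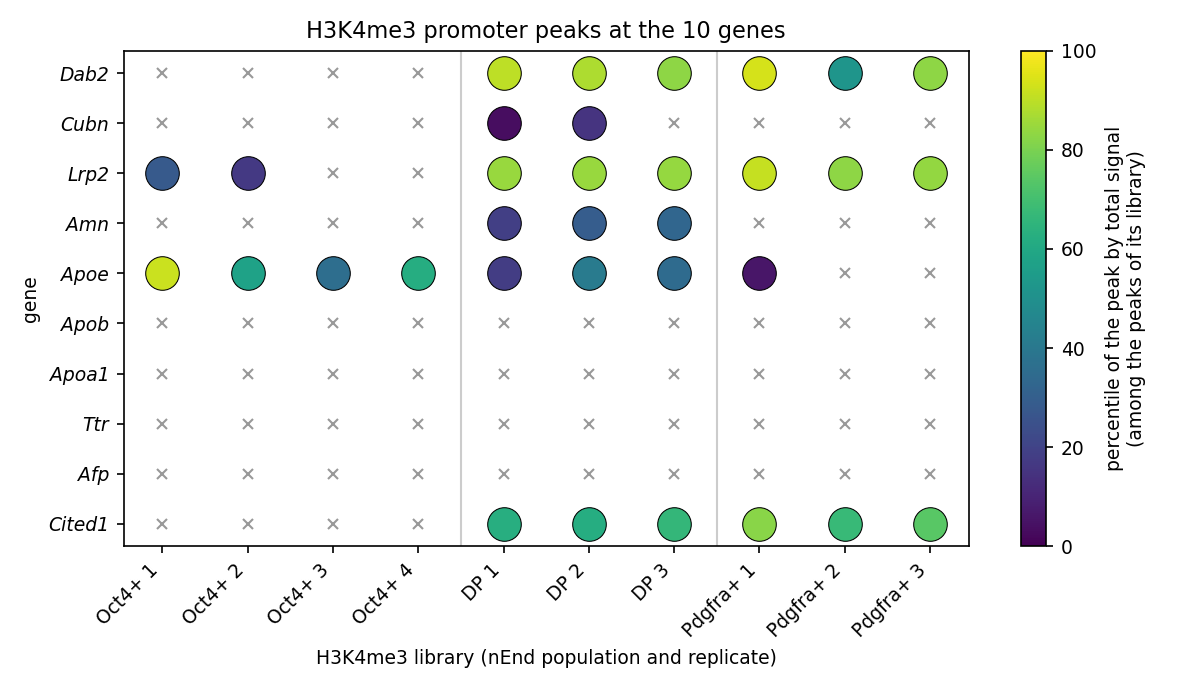
H3K4me3 promoter peaks at the 10 genes (vertical axis) in the 10 libraries (horizontal axis, by nEnd population and replicate). A circle is a called peak, coloured by its percentile by total signal among the peaks of its library, and a cross is no peak. *Dab2*, *Lrp2* and *Cited1* fill the DP and Pdgfra+ columns, *Amn* fills only the DP columns, and 4 genes have crosses throughout.

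*Dab2* encodes the clathrin adaptor of the uptake receptors and lies at chr15:6299788-6440712 on the plus strand, with 13 annotated starts. By total signal its peak stood at percentiles 90.1, 87.7 and 83.0 in DP nEnd and 93.5, 52.3 and 82.9 in Pdgfra+ nEnd, in the order of the replicates. No peak was called in the 4 Oct4+ libraries, where the nearest peak lay 283 to 284 kb away at *Rictor*. The DP and Pdgfra+ ranges overlapped each other, and Pdgfra+ replicate 2 stood well below the other 5 libraries. The mean of the 3 DP values was 86.9 ± 3.65 (SD, n = 3), and that of the Pdgfra+ values was 76.2 ± 21.4 (SD, n = 3).

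The *Dab2* peak sat at an internal group of starts, 86.8 kb after the 5′-most start of the gene, where several protein-coding transcripts begin. It covered 7 of the 13 starts in every DP and Pdgfra+ library, reached from chr15:6385803-6392182 at its widest limits, and lay wholly inside the gene. The 5′-most start was covered in 0 libraries. The 100 bases before each of these starts are shown because they set the marked and the unmarked promoter of one gene side by side, with every CG dinucleotide (CpG) in capitals. Promoters rich in CpG are a known site of H3K4me3.
*Dab2* 5′-most start, chr15:6299688-6299787, plus strand: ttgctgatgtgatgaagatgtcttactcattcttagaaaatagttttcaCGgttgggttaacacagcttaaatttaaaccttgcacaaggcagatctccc
*Dab2* internal start, chr15:6386498-6386597, plus strand: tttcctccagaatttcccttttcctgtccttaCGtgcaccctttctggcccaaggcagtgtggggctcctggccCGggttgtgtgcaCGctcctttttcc
The unmarked stretch holds 1 CpG and the marked stretch holds 3. Over the 300-base RefSeq promoters that contain them, the observed CpG count was 0.188 of that expected from base composition at the 5′-most start and 0.720 at the internal start. The median of all promoters of this length was 0.387.

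*Lrp2* encodes megalin, the large receptor of the uptake system, and lies at chr2:69424340-69586065 on the minus strand. Its peak stood at percentiles 84.8, 84.7 and 84.3 by total signal in DP nEnd and 91.3, 82.9 and 83.6 in Pdgfra+ nEnd. In Oct4+ nEnd it was called in replicates 1 and 2, at percentiles 27.9 and 16.5, and not in replicates 3 and 4, the libraries with the fewest peaks (3477 and 4887). All DP and Pdgfra+ values lay above all Oct4+ values, and the DP values differed among themselves by less than 1 percentile. Counting a missing peak as 0, the mean percentile of Oct4+ nEnd minus that of DP nEnd was -73.5, and minus that of Pdgfra+ nEnd it was -74.8. By highest coverage it stood at 68.0, 74.7 and 68.9 in DP nEnd and at 92.1, 84.4 and 82.9 in Pdgfra+ nEnd, so the 3 Pdgfra+ values lay above the 3 DP values. An exact two-sided permutation test of that difference gave p = 0.10, the smallest p that 3 against 3 libraries allow, and adjusted p = 1. How many of all genes separate in this way was not counted.

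*Lrp2* peaks were 8051, 7032 and 6985 bp wide in DP nEnd, and 7116, 2626 and 5060 bp wide in Pdgfra+ nEnd. In Oct4+ replicates 1 and 2 they were 4471 and 6098 bp wide. Pdgfra+ replicate 1 overlapped the DP widths and the other two Pdgfra+ libraries were narrower. On the log2 scale the *Lrp2* peak was 0.69 wider in DP than in Pdgfra+ nEnd (SE 0.37, limma, Benjamini-Hochberg adjusted p = 0.465), beside a median of 0.40 over the 7174 genes marked in all 6 libraries, of which 0.572% passed. Without Pdgfra+ replicate 1 the difference was 1.01 with adjusted p = 0.0425 in limma, and the median over all genes was then 0.63. In that fit 1101 of the 7174 genes passed, all of them wider in DP nEnd. Without Pdgfra+ replicate 2 the *Lrp2* difference was 0.29 with adjusted p = 0.980 in limma, so the size of the difference rested on these 2 libraries. Median peak widths of the Pdgfra+ libraries ran from 2204.5 to 3786 bp and those of the DP libraries from 3581 to 4222.5 bp, and the part of this in the widths at *Lrp2* was not tested. With each width set relative to its library's median, a setting chosen after seeing the data, the difference was 0.28 (limma adjusted p = 0.743).

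*Cubn* encodes cubilin, the partner receptor of megalin, and lies at chr2:13276338-13491813 on the minus strand. A peak was called in DP replicates 1 and 2, at percentiles 3.24 and 15.1 by total signal and 0.0861 and 0.209 by highest coverage, and in none of the other 8 libraries. By highest coverage, these were among the weakest peaks of their libraries. The total signal was 1.07 and 1.45 times the lowest in the list. The peaks, 5632 and 4394 bp wide, covered the 5′-most start of the gene. Fisher's exact test of presence gave p = 0.143 against Oct4+ nEnd and p = 0.40 against Pdgfra+ nEnd, and adjusted p = 1 for both.

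*Amn* encodes amnionless, the membrane subunit that carries cubilin, in a short gene at chr12:111271095-111276426 on the plus strand. Its peak stood at percentiles 18.4, 29.3 and 32.6 by total signal in the 3 DP libraries, and no peak was called in any Oct4+ or Pdgfra+ library. The populations did not overlap. In DP nEnd the peaks were 8148, 8548 and 7087 bp wide, and covered 100%, 89.6% and 95.1% of the gene. By width they stood at percentiles 96.0, 95.3 and 95.4 of their libraries, while by highest coverage they stood at 0.474, 2.57 and 2.39. The *Amn* peak was thus among the broadest and the lowest of each DP library. No other promoter window lay under it, and in the 7 unmarked libraries the nearest peak was 98.4 to 101 kb away, at *Cdc42bpb*.

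*Amn* was the only 1 of 21755 genes (0.0046%) marked in every DP library and in no Oct4+ or Pdgfra+ library. Its peaks ranked 6631 of 8128, 6250 of 8836 and 5108 of 7575 by total signal, so it was lost when each library was cut to its 3477 strongest peaks, where 7 other genes had the pattern. Pdgfra+ replicate 1, the library with the most peaks, also lacked it. Without that library 25 genes had the pattern, *Amn* among them. Without DP replicate 3 there were 4, *Amn* and *Cubn* among them, and without DP replicate 1 there were 3, *Amn* among them. When a peak had to cover 50% of a window there were 4, *Amn* among them. With 3 against 3 libraries the exact test of presence against Pdgfra+ nEnd gave p = 0.10 (adjusted p = 1), and against the 4 Oct4+ libraries it gave p = 0.0286 (adjusted p = 1). The 100 bases before the start of *Amn* are shown because this promoter separated DP nEnd from both other populations, with CpG in capitals.
*Amn*, chr12:111270995-111271094, plus strand: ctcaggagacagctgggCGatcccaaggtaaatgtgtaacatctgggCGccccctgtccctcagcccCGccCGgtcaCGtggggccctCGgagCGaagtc
The stretch holds 7 CpG, most of them close to the start, and the 300-base promoter had an observed over expected CpG of 0.516.

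**Figure D2:**
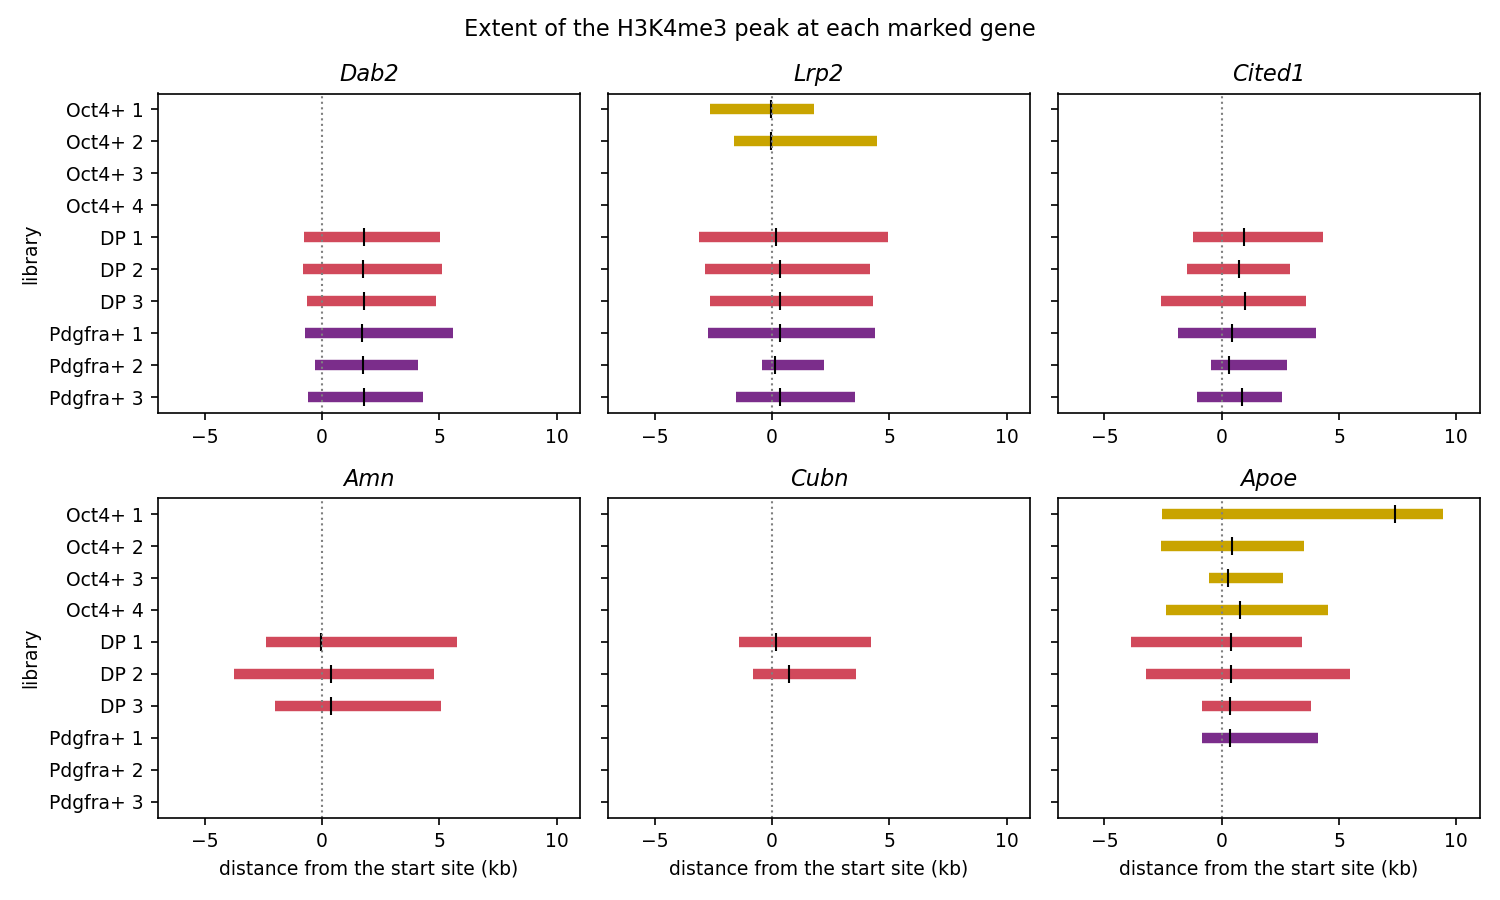
Extent of the H3K4me3 peak at the 6 marked genes, as distance in kb from a start site along the direction of transcription (horizontal axis), by library (vertical axis). Bars span the peak, coloured by population, and the black tick is the middle of its highest region. For *Dab2* the reference is the internal start. *Dab2*, *Lrp2* and *Cited1* have bars in all 6 DP and Pdgfra+ libraries, *Amn* and *Cubn* in DP alone, and the *Apoe* bar of Oct4+ replicate 1 is 11951 bp wide.

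Among the secreted proteins, *Apoe* was the only one marked. It encodes the apolipoprotein of remnant and high-density lipoproteins and lies at chr7:19696109-19699188 on the minus strand. By total signal its peak stood at percentiles 92.0, 57.8, 35.9 and 61.8 in Oct4+ nEnd and 17.8, 41.3 and 34.5 in DP nEnd. In Pdgfra+ nEnd it was called in replicate 1 alone, at percentile 5.49, with no peak nearer than 14.5 kb, at *Tomm40*, in the other two. The Oct4+ and DP values overlapped, since Oct4+ replicate 3 lay below DP replicate 2, and all Oct4+ and DP values lay above the Pdgfra+ values.

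The mean percentile of *Apoe* was 61.9 ± 23.1 (SD, n = 4) in Oct4+ nEnd and 31.2 ± 12.1 (SD, n = 3) in DP nEnd. The difference of 30.6 gave p = 0.0857 (exact two-sided permutation test) and adjusted p = 0.609. Against Pdgfra+ nEnd, counting a missing peak as 0, the difference was 60.0, with p = 0.0571 in the same exact test and adjusted p = 0.571. In limma on the normal score of the percentile, over the 3882 genes marked in all Oct4+ and DP libraries, *Apoe* was 0.90 higher in Oct4+ nEnd (SE 0.39, adjusted p = 0.192). In that fit 6.49% of genes passed and the median difference was -0.25. By highest coverage it was 0.64 higher (SE 0.40, limma adjusted p = 0.387), in a fit where 4.66% of genes passed. That difference was 0.33 without Oct4+ replicate 1 and 0.42 without DP replicate 1. Neither test passed the threshold of 0.05, although the Oct4+ mean was higher in both.

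The *Apoe* peaks of Oct4+ nEnd were 11951, 6068, 3166 and 6896 bp wide, and those of DP nEnd 7284, 8687 and 4657 bp. In Oct4+ replicate 1 the peak also covered the promoter of *Apoc1*, a neighbouring apolipoprotein gene, and its highest region lay 5828 bp beyond the nearest *Apoe* start. That peak's percentile of 92.0 is therefore a value for both genes. In the other 7 libraries with a peak it covered no other promoter window, and all 10 annotated *Apoe* starts lay under it. Without Oct4+ replicate 1 the difference from DP nEnd in limma was 0.56 (adjusted p = 0.193).

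The remaining 4 secreted proteins were unmarked in all 10 libraries, as were 46.5% of all genes. They are *Apob*, the structural protein of low-density lipoproteins, at chr12:7977648-8016835, and *Apoa1*, the main protein of high-density lipoproteins, at chr9:46228580-46230466. The others are *Ttr*, the carrier of thyroid hormone and retinol-binding protein, and *Afp*, a fetal plasma protein, at chr5:90490737-90508907. No peak touched the body of any of them. The nearest peak lay 122 to 123 kb from the starts of *Afp*, 195 to 661 kb from those of *Apob*, 72.8 to 79.3 kb from that of *Ttr* and 40.3 to 214 kb from those of *Apoa1*. These genes could not be ranked, and a mark under the lowest listed signal would not be seen.

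The stretches before the starts of *Apoa1* and *Afp* are shown as the counterpart of the marked promoters, with CpG in capitals.
*Apoa1*, chr9:46228480-46228579, plus strand: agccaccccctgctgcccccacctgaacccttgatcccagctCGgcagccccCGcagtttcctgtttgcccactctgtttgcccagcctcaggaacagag
*Afp*, chr5:90490614-90490713, plus strand: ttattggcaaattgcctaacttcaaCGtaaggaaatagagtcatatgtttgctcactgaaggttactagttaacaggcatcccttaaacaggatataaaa
They hold 2 CpG and 1 CpG. Over their 300-base promoters the observed over expected CpG was 0.158 for *Apoa1*, 0.2503 for *Afp* and 0.374 for *Apob*, all below the median of all promoters.

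*Cited1*, a transcriptional co-activator that binds CBP and p300, lies on the X chromosome at chrX:102247381-102252181, minus strand. Its peak stood at percentiles 62.5, 61.7 and 66.1 by total signal in DP nEnd and 82.2, 67.4 and 74.0 in Pdgfra+ nEnd, and no peak was called in the 4 Oct4+ libraries. Each of the 3 Pdgfra+ values lay above the 3 DP values, and the share of all genes separated in this way was not counted. The means were 63.4 ± 2.32 (SD, n = 3) and 74.5 ± 7.45 (SD, n = 3), and the exact two-sided permutation test gave p = 0.10, the smallest possible here, with adjusted p = 1. By highest coverage the values were 14.2, 22.0 and 24.4 in DP nEnd and 50.6, 5.65 and 35.5 in Pdgfra+ nEnd, and there the populations overlapped.

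All 5 annotated starts of *Cited1* lay under the peak in every marked library. The peaks were 5549, 4410 and 6183 bp wide in DP nEnd and 5870, 3236 and 3596 bp wide in Pdgfra+ nEnd, a log2 difference of 0.38 (SE 0.37, limma adjusted p = 0.568) beside a median of 0.40 over all genes tested. Without Pdgfra+ replicate 1 it was 0.64 (limma adjusted p = 0.0977, median 0.63), and without Pdgfra+ replicate 2 it was 0.21 (limma adjusted p = 0.980, median 0.17). In the Oct4+ libraries the nearest peak lay 60.5 to 830 kb away. The 100 bases before the 5′-most start are shown because this promoter separated the 6 DP and Pdgfra+ libraries from the 4 Oct4+ libraries, with CpG in capitals.
*Cited1*, chrX:102252182-102252281, minus strand: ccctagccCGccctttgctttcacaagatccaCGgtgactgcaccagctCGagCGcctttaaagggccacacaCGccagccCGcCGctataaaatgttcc
The stretch holds 7 CpG. The 3 RefSeq promoters of *Cited1* had an observed over expected CpG of 0.675 here, 0.530 at the middle start and 1.02 at the start nearest the 3′ end of the gene.

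Compared across populations, 3 of the 10 genes (*Dab2*, *Amn* and *Cited1*) were marked in every DP and in no Oct4+ library, a pattern held by 1.94% of all genes. For every Pdgfra+ and no Oct4+ library it was 2 of 10 (*Dab2* and *Cited1*), beside 1.43% of all genes. Both of these were marked in all 6 DP and Pdgfra+ libraries and in no Oct4+ library, as were 1.24% of all genes. For every DP and no Pdgfra+ library it was 1 of 10 (*Amn*), beside 0.11%. In the opposite direction none of the 10 was marked in every Oct4+ library and in no DP library (0.202% of all genes) or no Pdgfra+ library (0.359%), and none in every Pdgfra+ and no DP library (0.0046%). These shares of all genes moved when 1 library was left out. Without Oct4+ replicate 1 the first rose to 3.49% and the second to 2.57%, and without Pdgfra+ replicate 2 the second rose to 2.87%. For every DP and no Pdgfra+ library the share was 1.145% without Pdgfra+ replicate 1, where *Apoe* joined *Amn*, and 0.175% without DP replicate 3, where *Cubn* did. In the opposite direction, leaving out Oct4+ replicate 3 gave 0.455% for no DP library and 0.602% for no Pdgfra+ library, and leaving out Pdgfra+ replicate 1 gave 0.717% for the latter. For every Pdgfra+ and no DP library the share was highest without Pdgfra+ replicate 2, at 0.1425%. Since the 3 comparisons share libraries, these counts are not independent of each other.

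Single genes could not pass the adjusted threshold in the exact tests. The smallest exact p for 4 against 3 libraries is 0.0286, and with same-numbered libraries paired it is 0.25. *Dab2* and *Cited1* reached it for the presence of a peak between Oct4+ nEnd and each other population, and *Amn* reached it between Oct4+ and DP nEnd. By the percentile of total signal *Lrp2* reached the same exact p in both comparisons, and the adjusted p was 0.471 for Oct4+ against DP nEnd and 0.448 for Oct4+ against Pdgfra+ nEnd. No gene of 21755 passed at the adjusted threshold in either exact test. At an unadjusted p under 0.05, Fisher's test of presence gave 467 genes (2.15%) between Oct4+ and DP nEnd and 390 genes (1.79%) between Oct4+ and Pdgfra+ nEnd. The permutation test of the percentile by total signal gave 1320 genes (6.07%) and 1387 genes (6.38%), and that of the percentile by highest coverage gave 1137 genes (5.23%) and 1036 genes (4.76%).

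Between DP and Pdgfra+ nEnd, 3 of the 10 genes could be compared in limma (*Dab2*, *Lrp2* and *Cited1*), and none passed in width or in the normal score of either percentile. As DP minus Pdgfra+, the normal score by total signal differed by 0.29 at *Dab2* (SE 0.35, limma adjusted p = 0.951), by -0.33 at *Cited1* (SE 0.17, limma adjusted p = 0.951) and by -0.08 at *Lrp2* (SE 0.16, limma adjusted p = 0.977). The direction for *Dab2* rested on Pdgfra+ replicate 2, without which the difference was -0.10. The direction for *Lrp2* rested on Pdgfra+ replicate 1, without which it was 0.05, and the difference at *Cited1* was then -0.20. With equal numbers of peaks per library the differences were -1.04 at *Cited1* (limma adjusted p = 0.321), 0.55 at *Dab2* and -0.13 at *Lrp2*. Of the 7174 genes tested in limma, 0 passed by total signal and 1 (0.0139%) by highest coverage, where at an unadjusted p under 0.05 325 genes passed by total signal. Between DP and Pdgfra+ nEnd no gene reached an unadjusted p under 0.05 in the exact tests, since 0.10 is the smallest they allow.

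The percentiles of a peak by its 2 signals were not alike at these genes. In 31 of the 33 peaks the percentile by total signal was above that by highest coverage, the exceptions being the peaks of Pdgfra+ replicates 1 and 2 at *Lrp2*. The gap was wide at *Dab2*, where DP nEnd had 90.1, 87.7 and 83.0 by total signal beside 56.2, 55.4 and 47.3 by highest coverage. It was widest at *Apoe* and *Cited1*, where the Oct4+ replicate 4 peak of *Apoe* stood at 61.8 and 9.71 and the Pdgfra+ replicate 2 peak of *Cited1* at 67.4 and 5.65. By width the peaks stood at percentiles of 81.2 to 97.2 at *Dab2*, 54.9 to 92.4 at *Cited1* and 36.9 to 97.8 at *Apoe*. At *Lrp2* in Pdgfra+ nEnd the percentiles were 82.9 or more by both signals.

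**Figure D3:**
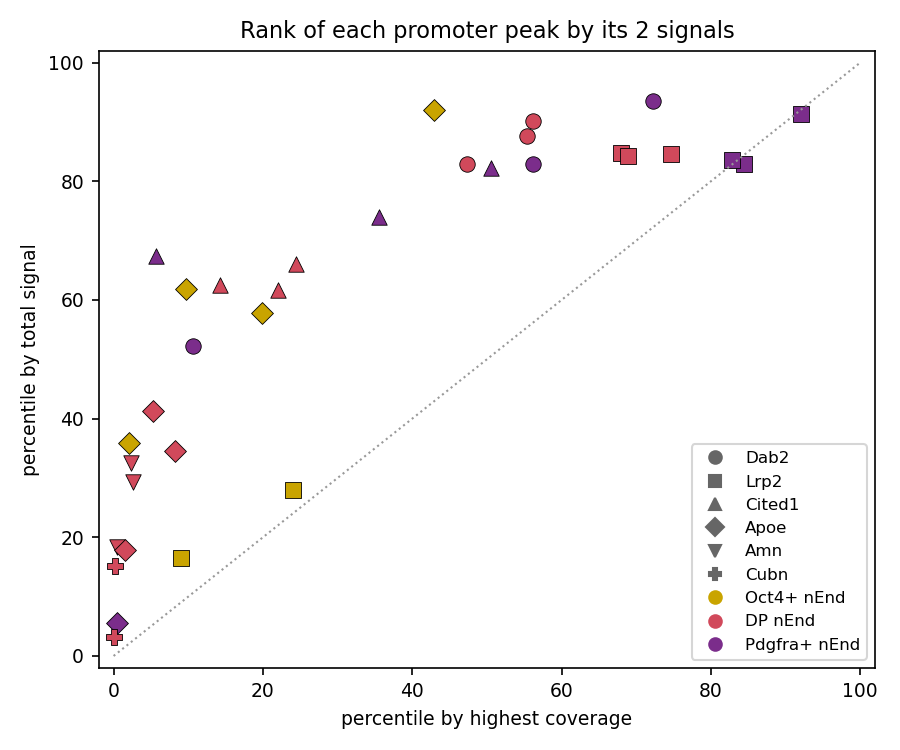
Percentile by total signal (vertical axis) against percentile by highest coverage (horizontal axis) for each of the 33 promoter peaks, with a shape per gene and a colour per population. The dotted line marks equal percentiles. In 31 of the 33 peaks the point lies above the line, and *Amn* and *Cubn* points lie at the far left.

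The authors' consensus peaks, 1 set per population, were searched with the same windows. *Apoe* and *Lrp2* lay under an Oct4+ consensus peak, 6 genes (*Dab2*, *Cubn*, *Lrp2*, *Amn*, *Apoe* and *Cited1*) under a DP consensus peak, and *Dab2*, *Lrp2* and *Cited1* under a Pdgfra+ consensus peak. Over all genes these shares were 39.8%, 42.4% and 40.8%. A consensus peak was present for each of the 10 genes with a peak in at least 2 libraries of the population, and absent otherwise. *Cubn* at 5632 bp therefore had a DP consensus peak from 2 of 3 libraries, and *Apoe* had no Pdgfra+ consensus peak from 1 of 3.

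The promoters of the 10 genes were compared by sequence over the 300 bases that RefSeq gives for each start (250 before and 50 after, GRCm38.p6). Of the 10 genes 9 matched, with 14 promoters, and *Ttr* (chr18:20665280-20674321, plus strand) did not. The CpG ratio was 0.344 to 1.02 at the 10 promoters that carried a peak in at least 1 library and 0.158 to 0.374 at the 4 that did not, *Cubn* being the lowest of the marked. Among all 32619 promoters the median was 0.873 where a peak was called in all 10 libraries (3882 promoters) and 0.225 where none was called (19970 promoters). The marked promoters of the 10 genes thus lay between these medians, except the *Cited1* start at 1.02.

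**Figure D4:**
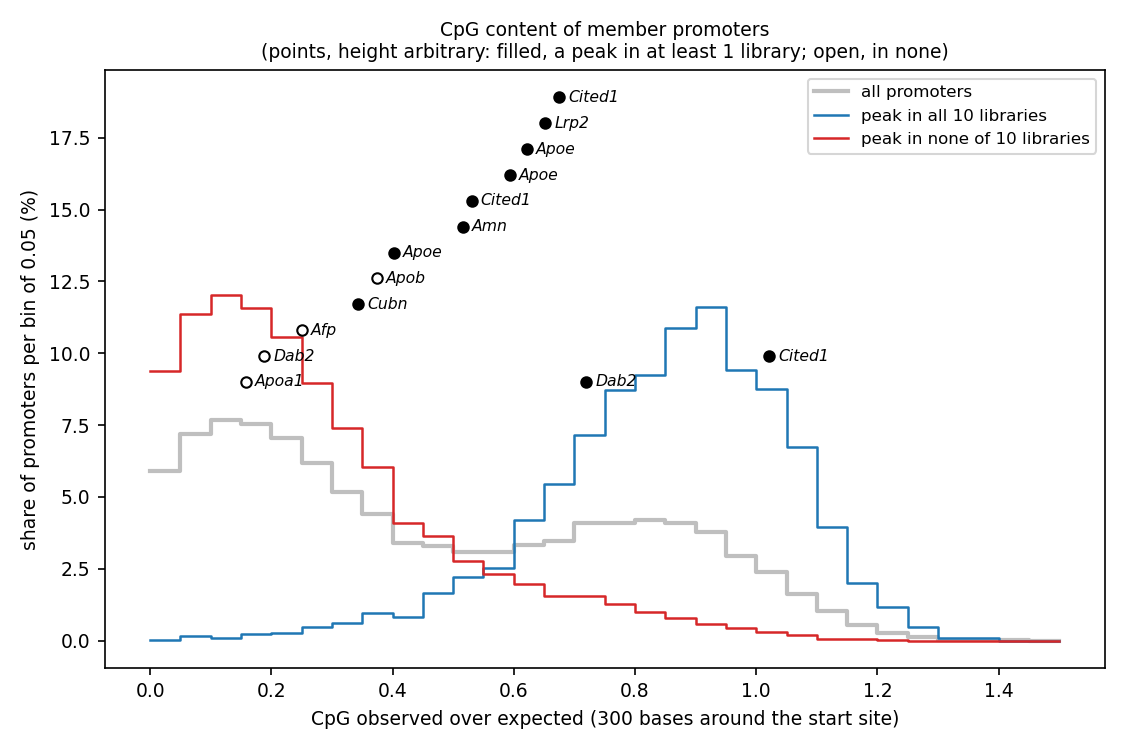
CpG content of 300-base promoters (horizontal axis, observed over expected) as the share of promoters per bin of 0.05 (vertical axis), for all promoters, those with a peak in all 10 libraries and those with none. Points are the promoters of the 9 matched genes at arbitrary heights, filled where a peak was called in at least 1 library and open where not. The open points lie at 0.158 to 0.374, and the filled points at 0.344 to 1.02.

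Short motifs of endoderm factors were looked for on both strands of the same promoters: AGATAA for GATA factors (in 11.2% of all promoters), TGTTTAC for FOX factors (3.67%), AAAGTCC for HNF4 (4.23%) and ACAAT for SOX factors (30.7%). TATAAA, the TATA box, was looked for on the gene's strand (8.34%). AGATAA was found at the unmarked 5′-most start of *Dab2*. *Apoe* held TGTTTAC at 1 start, TATAAA at another and ACAAT at the outermost. TATAAA was also found at *Apob*, at *Afp* and at 2 of 3 starts of *Cited1*. None of the 5 motifs was found at *Cubn*, *Lrp2*, *Amn* or *Apoa1*, and AAAGTCC was found at none of the 14 promoters. These matches describe letters in the window and say nothing of binding.

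Of 35 other genes of endocytic uptake (receptors, adaptors, clathrin, Rab proteins and lysosomal enzymes), 18 to 29 were marked per Oct4+ library, 31 to 33 per DP library and 25 to 33 per Pdgfra+ library. Of all genes, 18.5% to 43.8% were marked per Oct4+ library, 39.4% to 45.2% per DP library and 33.8% to 51.2% per Pdgfra+ library. In all 4 Oct4+ libraries 5 of the 35 were unmarked. Of the 35, 3 were marked in every DP and no Oct4+ library, beside 1.94% of all genes. They were *Vldlr*, a lipoprotein receptor, at percentiles of 15.8 to 35.9 in DP nEnd, *Clcn5*, an endosomal chloride transporter, at 3.06 to 16.2, and *Tcn2*, the vitamin B12 carrier, at 18.1 to 28.2. *Tcn2* alone was also marked in every Pdgfra+ library. None of the 35 passed the adjusted threshold in the exact tests, which no gene of 21755 passed.

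Of 27 other lipoprotein and plasma protein genes, 16 were unmarked in all 10 libraries, beside 46.5% of all genes. In every DP library 5 of the 27 were marked, beside 38.9% of all genes. Per library, 3 to 8 were marked per Oct4+ library, 5 to 8 in each DP library and 5 to 8 in each Pdgfra+ library. None of the 27 was marked in every library of one population and none of another. Such patterns were held by 0.0046% to 1.94% of all genes, so their absence among 27 genes says little. *Apoc1*, chosen for naming after its values were seen, was marked in 3 of 4 Oct4+ libraries and in no DP or Pdgfra+ library.

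Regulators and markers of the extra-embryonic endoderm were compared with the 10 genes. Of 19 transcription regulators, 5 were marked in every DP and no Oct4+ library (beside 1.94% of all genes) and none in every Oct4+ and no DP library. Among them *Foxa2*, a forkhead factor of endoderm, was marked in every DP and Pdgfra+ library and in no Oct4+ library. It stood at 99.8 in each DP library and 98.2 to 99.9 in Pdgfra+ nEnd, higher than the peaks of the 10 genes in any library. *Sox7*, a SOX factor of primitive endoderm, had the same pattern and stood at 69.1 to 70.7 in DP nEnd. *Lhx1*, a LIM homeodomain factor, stood at 7.51 to 14.96 in DP nEnd and was marked in 1 of 3 Pdgfra+ and 0 of 4 Oct4+ libraries. *Otx2*, a homeodomain factor of the same list chosen for naming after its values were seen, was marked in 3 of 4 Oct4+ libraries and in no DP or Pdgfra+ library. Of 18 visceral endoderm markers, 6 were marked in every DP and no Oct4+ library (beside 1.94% of all genes) and 5 in every Pdgfra+ and no Oct4+ library (beside 1.43%). Among them *Bmp2*, a signalling ligand, stood at 85.5 to 89.3 in DP nEnd, *Ihh*, a hedgehog ligand, at 80.1 to 81.9, and *Cyp26a1*, which degrades retinoic acid, at 73.1 to 79.4. *Slc39a8*, a metal ion transporter, stood lower, at 53.9 to 69.9, and *Dkk1*, a secreted Wnt inhibitor, at 33.6 to 50.5. Of the same list, *Lefty1* and *Emb* were chosen for naming after their values were seen. *Lefty1* was marked in 3 of 4 Oct4+ libraries, at 26.4 to 42.2, and in no DP or Pdgfra+ library. *Emb* stood at 31.4 to 32.5 in 2 Oct4+ libraries and at 11.4 to 21.1 in the 3 DP libraries. Of the 18, 5 were unmarked in all 10 libraries, beside 46.5% of all genes.

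The other marker lists gave the following counts of genes marked in every DP and no Oct4+ library, beside 1.94% of all genes. Of 13 primitive endoderm markers there were 3, *Foxa2* and *Sox7* again and *Srgn*, a secretory granule proteoglycan. Of 8 trophectoderm markers there were 3, the keratins *Krt8* and *Krt18* and the regulator *Gata3*, and of 15 fibroblast markers there was 1, the collagen *Col5a1*, at percentiles of 8.67 to 18.1. None of the 11 parietal endoderm, 11 epiblast or 6 mesoderm markers had the pattern. A peak in 1 Oct4+ library is enough to leave a gene out of it. Of the 11 parietal endoderm markers, 7 were marked in every DP library, 7 in every Pdgfra+ library and 0 in every Oct4+ library. For the 13 primitive endoderm markers these counts were 13, 12 and 1, beside 38.9%, 33.5% and 18.2% of all genes. In the opposite direction, every Oct4+ and no DP library (0.202% of all genes), there was 1 of 8 trophectoderm markers, the regulator *Tfap2c* at percentiles of 46.1 to 80.4, and 1 of 11 epiblast markers, the growth factor *Fgf4* at 83.2 to 94.7, and both were also unmarked in every Pdgfra+ library. Of the 11 epiblast markers, 6 were marked in every Oct4+ and no Pdgfra+ library (0.359% of all genes). The *Amn* pattern of every DP and no Pdgfra+ library (0.11% of all genes) was held by 4 of the 11. The lists were chosen with earlier results known and are a description.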

How the data were processed

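H3K4me3 CUT&Tag was measured in 10 libraries of sorted nEnd, as above. Per the study's methods and the submitters' processing notes, the authors sequenced paired-end, aligned to mm10 (Bowtie2, no version given in the sources used here; SAMtools 1.12), made coverage with bedtools 2.26.0, called peaks per library with SEACR (stringent) against IgG, and derived consensus peaks per population with DiffBind. The deposited signal values are the total and the highest coverage of each peak, unscaled by the authors. The consensus files hold positions with a constant column.

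TSSs came from every annotated transcript of protein-coding genes of GENCODE M21 on chromosomes 1 to 19 and X (93196 windows of 21755 genes), where an overlap of 1 bp counted. With several peaks at a gene, the one with the highest total signal was used. Presence was compared by Fisher's exact test and percentiles (no peak counted as 0) by exact two-sided permutation tests over libraries. Log2 widths and normal scores of percentiles were compared by limma 3.58.1 (R 4.3.3) for genes marked in all libraries of both populations. P-values were Benjamini-Hochberg adjusted over all genes tested, with a threshold of 0.05. The 4 Oct4+ libraries were all used, except that fits paired by replicate number left out Oct4+ replicate 4. Deviations of same-numbered Oct4+ and Pdgfra+ libraries correlated at 0.126 to 0.193, beside -0.26 to 0.026 for other numbers. In the other comparisons not every same-numbered pair was over 0.1. Over all comparisons same numbers gave -0.20 to 0.20, inside the -0.38 to 0.31 of other numbers. The numbers were therefore used as pairs only in alternative fits, since neither the labels nor these correlations settle the pairing. The tests were tested on simulated data. Python 3.11.15, scipy 1.17.1 and pandas 2.3.3 were used. The 10 genes and all lists were chosen with earlier results of these data known. All 10 genes are named, and from each other list at most 5 genes marked in every library of one population and in no library of another, by their lowest percentile, together with the sort markers. A few others are named where the text says that they were chosen after their values were seen. Some genes that this rule gives, and part of the motif search, are not reported here. Other histone marks, RNA and the reads were not analysed here. Intervals were not computed, and the depth is unknown. The p-values compare libraries of the same reporter line, and the exact ones cannot go below the limits given above.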

Additional observations from a re-analysis of the deposited data

How the results depend on the processing

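Among the tested differences of the 10 genes, 15 alternative values reversed, 1 came to pass and 17 vanished or appeared. With equal numbers of peaks per library (3477), the genes marked in every DP library and in no Oct4+ or Pdgfra+ library fell from 1 to 0, as did those in every DP and no Pdgfra+ library, because the *Amn* peaks rank below that number. That setting gave 16 of the 17: all differences of *Amn* and *Cubn* vanished, as did those of *Apoe* between DP and Pdgfra+ nEnd, and *Apoe* came to differ in presence between Oct4+ and DP nEnd. *Apoe* then became 1 gene marked in every Oct4+ and no DP library, and 1 in every Oct4+ and no Pdgfra+ library, and *Lrp2* joined *Dab2* and *Cited1* among the genes marked in every DP or every Pdgfra+ library and in no Oct4+ library. The shares of all genes also moved, to 1.338% for every Oct4+ and no DP library, 1.788% for every Oct4+ and no Pdgfra+ library, 2.06% for every DP and 2.25% for every Pdgfra+ and no Oct4+ library, 0.331% for every DP and no Pdgfra+ library and 0.179% the other way. Leaving out 1 library at a time gave 1 to 2 genes in every DP and no Oct4+ or Pdgfra+ library and 1 to 2 in every DP and no Pdgfra+ library (*Cubn* joins without DP replicate 3, and *Apoe* joins the latter without Pdgfra+ replicate 1). It gave 0 to 1 in every Oct4+ and no Pdgfra+ library (*Apoe*, without Pdgfra+ replicate 1). 

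Directions that reversed were of differences that did not pass. Centring widths on the library median, chosen after seeing the data, gave log2 differences of 0.077 for *Apoe* (Oct4+ minus DP), and of -0.021 for *Cited1* and -0.25 for *Dab2* (DP minus Pdgfra+). Equal numbers of peaks gave -1.61 for the percentile by highest coverage at *Dab2*. Requiring a peak to cover 50% of the window removed the narrow *Lrp2* peak of Pdgfra+ replicate 2, and the DP minus Pdgfra+ difference at *Lrp2* became 26.3 by total signal and 12.2 by highest coverage. Leaving out 1 library at a time, the log2 width of *Apoe* ranged from -0.38 to 0.25. For DP minus Pdgfra+ nEnd, the normal score by highest coverage ranged from -0.67 to 0.13 at *Cited1* and from -0.30 to 0.62 at *Dab2*, and the normal score by total signal from -0.10 to 0.63 at *Dab2* and from -0.15 to 0.053 at *Lrp2*. The percentile by highest coverage at *Dab2* ranged from -11.2 to 19.6, and the percentile by total signal from -1.25 to 19.3 at *Dab2* and from -2.89 to 1.30 at *Lrp2*. These turns came without Pdgfra+ replicate 1 or 2, for *Apoe* without Oct4+ replicate 3 or DP replicate 2, and beyond the libraries left out the cause was not tested. The 1 value that came to pass was the *Lrp2* width without Pdgfra+ replicate 1 (1.01), in a fit where 1101 of 7174 genes passed.

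Same-numbered libraries correlated at -0.20 to 0.20 over all 9 pairs, and libraries of other numbers at -0.38 to 0.31 over 18 pairs. With the replicate number as a replicate block, which leaves out Oct4+ replicate 4, the limma differences of the 10 genes kept their direction and none passed, with a smallest adjusted p of 0.279 (limma, *Apoe* by total signal, a difference of 0.93). Over all genes, calls in limma by total signal between Oct4+ and DP nEnd were 252, 96 without Oct4+ replicate 4 and 105 with the block on those same libraries. Between Oct4+ and Pdgfra+ nEnd they were 179, 63 and 265 by total signal and 85, 67 and 215 by width. By highest coverage they were 181, 108 and 158 against DP nEnd and 52, 20 and 21 against Pdgfra+ nEnd. Between DP and Pdgfra+ nEnd the block took width calls from 41 to 24. It changed no call at the 10 genes, but the paired exact tests cannot go below p = 0.25 and say nothing about stability. The percentiles compare ranks within lists of unequal length, and a list's lowest signal limits what counts as unmarked.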
